A study of Rattus norvegicus with 6 samples.

Results

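Regulators of G protein signalling (RGS proteins) switch off signals from G protein-coupled receptors: they speed up the hydrolysis of GTP by G alpha subunits. Here 10 Rgs genes were followed by symbol on the array's probe list, and 9 of the 10 had a probe set listed for that gene alone, out of 14506 genes measured. These 9 were Rgs1, Rgs2, Rgs3, Rgs4, Rgs5, Rgs7, Rgs8, Rgs16 and Rgs17, each with 1 such probe set, so no choice between probe sets was needed. The probe set listed for Rgs10 is also listed for Tial1, and Rgs10 was therefore not analysed here. The measured genes cover several branches of the family. Rgs1, Rgs2, Rgs3, Rgs4, Rgs5, Rgs8 and Rgs16 belong to the R4 branch, mostly small proteins that act on Gi/o and Gq. Rgs7 belongs to the R7 branch of neurons, which works as a dimer with the G beta subunit Gnb5, and Rgs17 to the RZ branch, which acts on Gi, Go and Gz.

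The RNA came from neurospheres, floating cell clusters that form when the carotid body of adult rats, an arterial oxygen sensor, is taken apart and cultured. Per the labels, the 3 samples labelled differentiated were grown in neural crest medium without mitogens at 3% oxygen, and the 3 labelled undifferentiated with FGF, IGF-1, EGF and ET-1 in normoxia, all for 10 days in low-adhesion plates. Mitogens and oxygen changed together, so their effects cannot be told apart, and the sources used here do not give the strain or the number of animals. As the study framed it, spheres rich in neurons were set against spheres of undifferentiated cells. The transcripts of Th and Tubb3, given below, did not show that contrast. Whether the labels of medium and oxygen match the arrays was not tested.

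The glomus cell, the chemoreceptor cell of the carotid body, releases transmitters when oxygen falls, and G protein-coupled receptors for dopamine, ATP, adenosine and peptides tune that release. RGS proteins set how long such receptor signals last. In mammals, the proteins RGS4, RGS5 and RGS16 are also known as targets of the N-degron pathway, in which an N-terminal cysteine is oxidised by the dioxygenase ADO when oxygen is present, arginylated by ATE1 and recognised by UBR ubiquitin ligases. The arrays measured transcripts, not these proteins.

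Th, which encodes tyrosine hydroxylase and marks dopamine-making glomus cells, went against the labels. It read 10.73, 11.32 and 10.65 on the log2 scale on the arrays labelled differentiated, against 13.76, 13.59 and 13.91 on those labelled undifferentiated (limma adjusted p = 5.09e-07). The neuronal tubulin Tubb3 differed by -0.0016 (limma adjusted p = 0.995), with a sign that turned under quantile normalization (0.0574) and median centring (0.0283). Groups are therefore named by their labels throughout, and every difference is the arrays labelled differentiated minus those labelled undifferentiated. Array medians lay between 5.05 and 5.13 and the median difference over all genes was 0.06. Whether the replicates are separate cultures is not labelled, so the p-values cover only the spread seen among these 6 arrays, and part of it may be technical.

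Among the 9 measured Rgs genes, Rgs4 and Rgs5 fell about 5-fold in the arrays labelled differentiated, Rgs7 and Rgs17 fell less, and Rgs2 and Rgs16 rose. Rgs1, Rgs3 and Rgs8 did not pass. The test was limma's moderated test with Benjamini-Hochberg adjustment over all 14506 genes at 0.05. By that rule 2 of the 9 were higher, where 14.7% of all genes were, and 4 of the 9 were lower, where 14.9% of all genes were. In either direction this makes 6 of the 9, against 29.5% of all genes. The groups did not overlap in 7 of the 9, against 42.3% of all genes: 2 lay higher (22.5% of all genes) and 5 lower (19.8% of all genes). The median difference of the 9 was -0.43, beside 0.06 over all genes. The Rgs genes were chosen with earlier results of these data known, so these shares describe the members and carry no test.

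Of the 10 Rgs genes, 7 lie on rat chromosome 13 in the RefSeq annotation of GRCr8, all but Rgs7 in close pairs. Rgs4 and Rgs5 are neighbours with 0 protein-coding genes between them, as are Rgs8 and Rgs16, and Rgs1 and Rgs2 have 1 between them, Rgs13. The bases before the annotated starts are shown for the genes with the largest falls (Rgs4 and Rgs5) and for those that rose (Rgs2 and Rgs16), from RefSeq's GRCr8 table, 5′ to 3′ on the gene's strand. Each runs over the 250 bases before the start. Capitals mark TGACG, the core of the cAMP response element, ACGTG, a form of the core of the hypoxia response element, and TATAAA, the TATA box, each searched on both strands. Other forms of the hypoxia response element core, such as GCGTG, were not part of this search and are not marked.
Rgs4, chr13:84475885-84476134, minus strand: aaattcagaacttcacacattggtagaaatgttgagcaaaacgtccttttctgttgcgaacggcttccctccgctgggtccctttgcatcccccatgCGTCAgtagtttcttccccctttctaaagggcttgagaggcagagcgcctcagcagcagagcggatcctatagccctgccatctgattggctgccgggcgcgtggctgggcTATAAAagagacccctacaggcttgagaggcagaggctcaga
Rgs5, chr13:84380827-84381076, plus strand: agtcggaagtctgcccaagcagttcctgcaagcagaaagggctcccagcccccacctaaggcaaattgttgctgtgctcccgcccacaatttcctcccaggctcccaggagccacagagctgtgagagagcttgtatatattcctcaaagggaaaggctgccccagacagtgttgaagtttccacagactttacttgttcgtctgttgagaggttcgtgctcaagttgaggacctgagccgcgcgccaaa
Rgs2, chr13:58352667-58352916, minus strand: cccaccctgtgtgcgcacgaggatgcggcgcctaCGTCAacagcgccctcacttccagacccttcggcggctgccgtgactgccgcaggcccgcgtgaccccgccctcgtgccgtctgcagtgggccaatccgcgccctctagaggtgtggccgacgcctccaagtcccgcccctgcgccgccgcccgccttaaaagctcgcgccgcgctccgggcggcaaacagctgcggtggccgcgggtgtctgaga
Rgs16, chr13:68437870-68438119, plus strand: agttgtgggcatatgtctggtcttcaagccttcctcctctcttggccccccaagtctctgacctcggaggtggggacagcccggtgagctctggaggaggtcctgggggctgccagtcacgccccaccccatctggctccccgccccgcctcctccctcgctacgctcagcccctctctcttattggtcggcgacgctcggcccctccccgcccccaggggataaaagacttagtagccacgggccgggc
Rgs4 has TGACG on the opposite strand 153 to 149 bases before its start and TATAAA 42 to 37 bases before it. Rgs2 has TGACG on the opposite strand 216 to 212 bases before its start. In the windows of Rgs5 and Rgs16 there were 0 matches to the sequences searched. Over all 33469 windows of the table, 18.2% held TGACG, 16.6% held ACGTG and 12.9% held TATAAA; among the 10 Rgs genes the counts were 4, 2 and 3. ACGTG was in the windows of Rgs1 and Rgs7 and in none of the 4 shown here, and in Rgs1 it overlaps a TGACG. The form GCGTG, left in lower case, can be read in the printed windows of Rgs4 and Rgs2. Its reverse complement, CACGC, can be read in that of Rgs16, and neither is in that of Rgs5. The share of all windows with GCGTG was not counted. A match is a description of the letters and does not show that a factor binds.

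Rgs4, an R4 protein that limits Gi/o and Gq signals in neurons and heart, was the member with the largest fall. It read 10.08, 10.25 and 9.65 on the arrays labelled differentiated, against 12.36, 12.30 and 12.44 on those labelled undifferentiated. The groups lay far apart, and the lower group had the wider spread, with its replicate 3 lowest. The mean was 9.99 ± 0.31 on the arrays labelled differentiated and 12.37 ± 0.07 on those labelled undifferentiated (SD, n = 3 each). The difference was -2.37 ± 0.14 (SE), a 5.18-fold fall (limma adjusted p = 5.02e-07).

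Rgs5, an R4 protein best known as a marker of pericytes, followed Rgs4 closely. It read 10.34, 10.29 and 9.78 on the arrays labelled differentiated, against 12.46, 12.31 and 12.48 on those labelled undifferentiated. Again the groups lay far apart and replicate 3 labelled differentiated was lowest. The difference was -2.28 ± 0.15 (SE), a 4.84-fold fall (limma adjusted p = 7.63e-07). A fall of at least 2 that passed the test was found in 1.36% of all genes, Rgs4 and Rgs5 among them. When each array was left out in turn, the difference ran from -2.50 to -2.20 for Rgs4 and from -2.38 to -2.10 for Rgs5. Both probe sets read above the upper quartile of every array, which lay between 6.83 and 6.92, so both transcripts were bright in both groups.

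**Figure D1:**
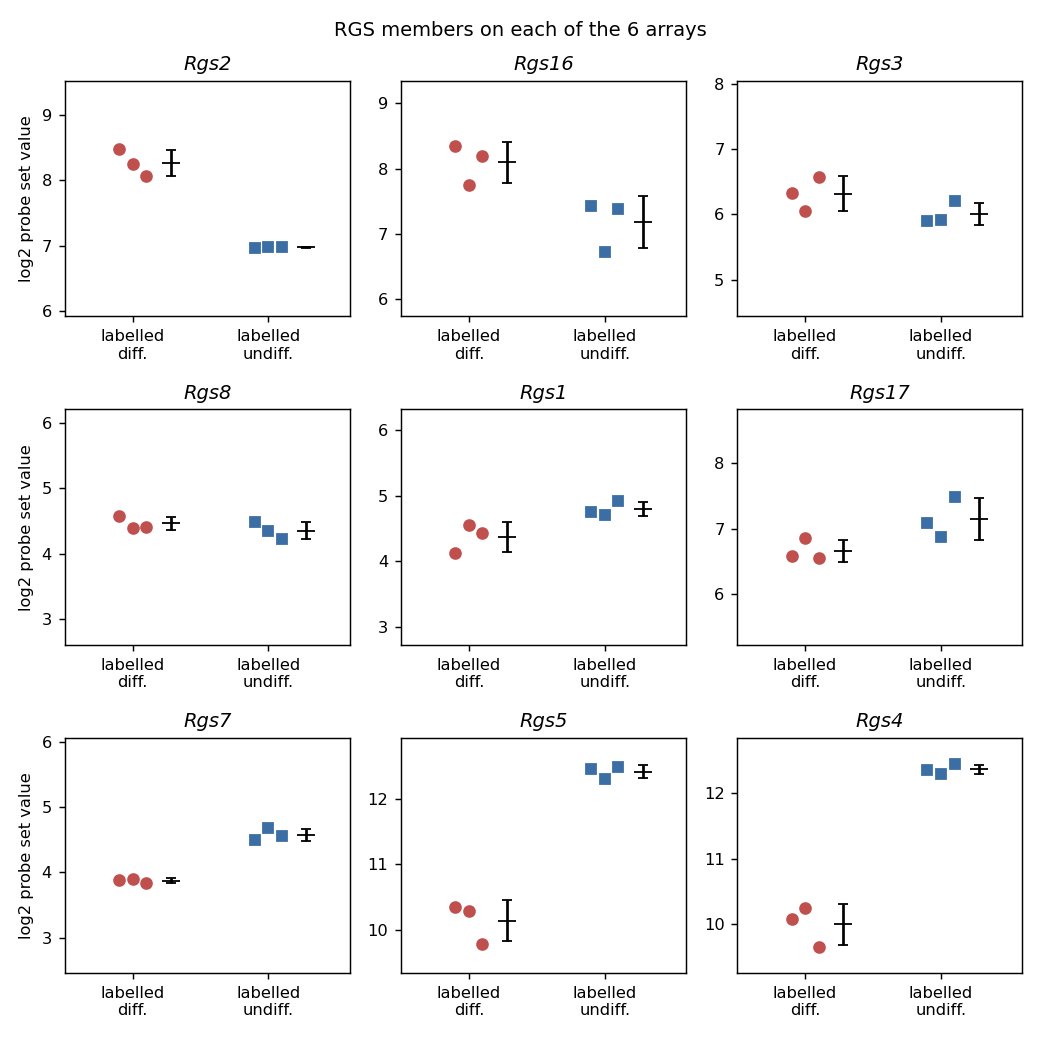
Log2 probe set value (vertical axis, the same span of units in each panel) of the 9 measured Rgs genes on the 3 arrays labelled differentiated (labelled diff., red circles) and the 3 labelled undifferentiated (labelled undiff., blue squares), with the mean and SD of each group in black. Rgs4 and Rgs5 lie near 10 in the arrays labelled differentiated and near 12.4 in the others, Rgs2 and Rgs16 lie higher in the arrays labelled differentiated, and the groups overlap for Rgs3 and Rgs8.

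Rgs2, an R4 protein with a preference for Gq, and a gene known to be switched on quickly by receptor signals and cAMP, showed the largest rise of the members. It read 8.47, 8.24 and 8.07 on the arrays labelled differentiated, against 6.96, 6.97 and 6.98 on those labelled undifferentiated. All 3 arrays of the first group were above all 3 of the second, whose values hardly differed among themselves. The difference was 1.30 ± 0.11 (SE), a 2.45-fold rise (limma adjusted p = 7.67e-06). A rise of at least 1 that passed was found in 3.2% of all genes. It ran from 1.19 to 1.39 when each array was left out.

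Rgs16, an R4 protein that acts on Gi and Gq and is induced in many activated cells, read 8.35, 7.75 and 8.19 on the arrays labelled differentiated, against 7.43, 6.73 and 7.39 on those labelled undifferentiated. The groups did not overlap, and the second replicate was the lowest in both. The difference was 0.91 ± 0.20 (SE), a 1.88-fold rise (limma adjusted p = 0.00444). Rgs16 did not pass an unmoderated test (adjusted p = 0.115). Its neighbour on the chromosome, Rgs8, an R4 protein of the brain, did not move with it: it read 4.58, 4.40 and 4.41 on the arrays labelled differentiated, against 4.48, 4.35 and 4.23 on those labelled undifferentiated. The difference of Rgs8 was 0.11, with a 95% interval from -0.20 to 0.41 (limma adjusted p = 0.62).

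Rgs7, the member of the R7 branch, was dim but fell evenly. It read 3.89, 3.90 and 3.83 on the arrays labelled differentiated, against 4.50, 4.68 and 4.55 on those labelled undifferentiated. The groups did not overlap, and every value lay below its array's median and above its lower quartile. The difference was -0.71 ± 0.13 (SE), a 1.63-fold fall (limma adjusted p = 0.00195). How far such a dim probe set stands over background is not known here, and the fold is uncertain for that reason.

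Rgs17, of the RZ branch, read 6.58, 6.86 and 6.56 on the arrays labelled differentiated, against 7.09, 6.87 and 7.49 on those labelled undifferentiated. The groups barely missed each other: the second replicates differed by the least. The difference was -0.48 ± 0.16 (SE, limma adjusted p = 0.0375). The call was near the threshold and was lost in several fits with 1 array left out. Rgs17 did not pass without differentiated replicate 1 (-0.44, adjusted p = 0.109) or 3 (-0.43, adjusted p = 0.117). Nor did it pass without undifferentiated replicate 1 (-0.51, adjusted p = 0.0683) or 3 (-0.31, adjusted p = 0.151).

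Rgs1, known from lymphocytes and other leukocytes, read 4.12, 4.56 and 4.43 on the arrays labelled differentiated, against 4.76, 4.71 and 4.92 on those labelled undifferentiated. The groups did not overlap, but the difference of -0.43, with a 95% interval from -0.77 to -0.09, did not pass after adjustment (limma adjusted p = 0.0589). It passed without differentiated replicate 2 (adjusted p = 0.034). Rgs3, a longer R4 protein, read 6.33, 6.05 and 6.58 on the arrays labelled differentiated, against 5.90, 5.92 and 6.20 on those labelled undifferentiated, with overlapping groups. Its difference was 0.32, with a 95% interval from -0.02 to 0.65 (limma adjusted p = 0.153), and it passed without differentiated replicate 2 (0.45, adjusted p = 0.0373). Rgs1, Rgs7 and Rgs8 were the 3 members below their array's median on all 6 arrays.

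The other Rgs genes were mixed. Of 8 measured, 2 rose (14.7% of all genes did), 1 fell (14.9% of all genes did) and 5 did not pass, with a median of 0.17. Rgs12, a large scaffold protein of the R12 branch, rose by 0.93 ± 0.13 (SE, limma adjusted p = 0.000284). It read 6.58, 6.25 and 6.54 on the arrays labelled differentiated, against 5.70, 5.44 and 5.43 on those labelled undifferentiated. Rgs19, of the RZ branch like Rgs17, rose by 0.40 (limma adjusted p = 0.0263), the opposite way to Rgs17. The rise of Rgs19 did not pass without differentiated replicate 2 (adjusted p = 0.0845) or 3 (0.0554), or without undifferentiated replicate 1 (0.0692) or 2 (0.0894). The differences of Rgs11, Rgs14, Rgs18, Rgs6 and Rgs20 were 0.31, 0.25, 0.09, -0.01 and -0.09, and none passed. Rgs18, Rgs6 and Rgs20 changed sign when single arrays were left out, and Rgs11 passed without differentiated replicate 1 (0.54, adjusted p = 0.0178). Rgs6 lay below the lower quartile on all 6 arrays.

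Rgs9, of the R7 branch like Rgs7, fell by 0.68 ± 0.12 on the log2 scale (SE, limma adjusted p = 0.001). It read 5.14, 5.12 and 5.13 on the arrays labelled differentiated, against 5.72, 5.88 and 5.83 on those labelled undifferentiated. Gnb5, the G beta subunit that R7 proteins need for stability, read 6.71, 7.19 and 6.91 on the arrays labelled differentiated, against 8.18, 8.41 and 8.41 on those labelled undifferentiated. The groups of both genes were clearly apart, and Gnb5 fell by 1.40 ± 0.13 on the log2 scale (SE, limma adjusted p = 1.35e-05). Rgs7bp, which anchors R7 dimers at the membrane, fell by 0.45 (limma adjusted p = 0.0326), a call lost without each array in turn except differentiated replicate 2 (adjusted p up to 0.11). Rgs9bp, the anchor known from photoreceptors, differed by 0.15 (limma adjusted p = 0.49). Of the 4 measured R7 branch genes, Rgs7 and Rgs9 thus passed downward (14.9% of all genes did), and the differences of Rgs6 and Rgs11 are given above.

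**Figure D2:**
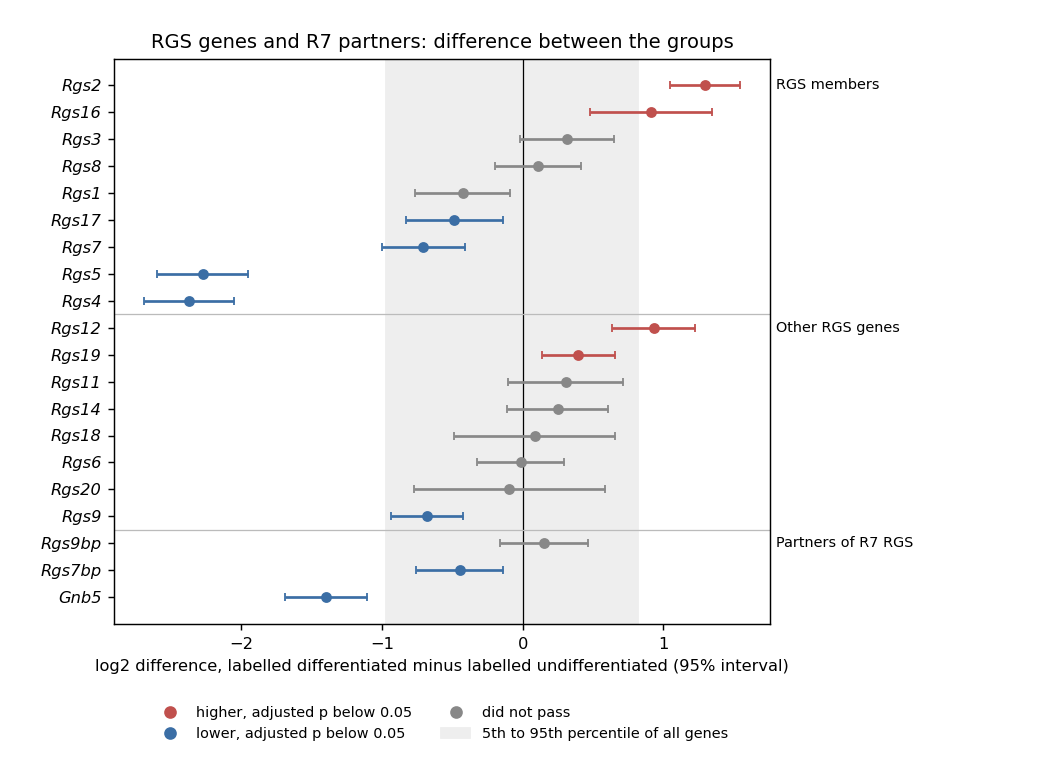
Log2 difference (horizontal axis, labelled differentiated minus labelled undifferentiated) of the 9 followed Rgs genes, 8 other Rgs genes and 3 partners of the R7 branch, with 95% intervals from limma; red passed upward, blue passed downward, grey did not pass, and the pale band runs from the 5th to the 95th percentile of all genes (-0.97 to 0.82). Rgs4, Rgs5 and Gnb5 lie to the left of the band, and Rgs2, Rgs16 and Rgs12 to its right.

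The G alpha subunits, on which RGS proteins act, did not move as a block. Among the Gi, Go and Gz subunits 0 of 5 rose and 2 fell, where 14.7% of all genes rose and 14.9% fell. Gnao1, the Go subunit of neurons and endocrine cells and the preferred substrate of R7 dimers, read 5.95, 6.12 and 5.90 on the arrays labelled differentiated, against 7.51, 7.74 and 7.57 on those labelled undifferentiated. It fell by 1.61 ± 0.11 on the log2 scale (SE, limma adjusted p = 1.09e-06), and Gnai1 fell by 0.83 (limma adjusted p = 0.000148). Gnai2 and Gnai3, the widely used Gi subunits, differed by 0.19 and 0.21 and did not pass, although both passed with quantile normalization (0.27, adjusted p = 0.0275, and 0.30, adjusted p = 0.0149). Gnaz differed by -0.16 (limma adjusted p = 0.441).

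In the Gq family 1 of 4 rose and 1 fell, where 14.7% of all genes rose and 14.9% fell. Gnaq and Gna11, the common Gq subunits and the substrates of RGS2, differed by -0.05 and -0.09, with 95% intervals from -0.29 to 0.18 and from -0.32 to 0.14. When differentiated replicate 2 was left out, the difference of Gnaq was 0.0117. Gna15, of blood cells, rose by 0.66 (limma adjusted p = 0.00889). Gna14, below the lower quartile on 5 of 6 arrays, fell by 0.51 (limma adjusted p = 0.0375), a call lost without differentiated replicate 1 (adjusted p = 0.102) or 2 (0.104), and without undifferentiated replicate 2 (0.128) or 3 (0.0749). Of the other 4 subunits 1 rose and 2 fell. Gnas, the stimulatory subunit that drives adenylyl cyclase, read 11.56, 11.44 and 11.28 on the arrays labelled differentiated, against 12.93, 12.76 and 12.89 on those labelled undifferentiated, and fell by 1.43 ± 0.12 on the log2 scale (SE, limma adjusted p = 4.61e-06). Gnal, its olfactory relative, fell by 1.42, but its arrays labelled differentiated, at 2.65, 2.76 and 2.54, lay below their lower quartiles, so that size is uncertain. Gna12 rose by 0.35 (limma adjusted p = 0.0343), which did not pass without differentiated replicate 1 (adjusted p = 0.0567) or 3 (0.129), or without undifferentiated replicate 2 (0.116) or 3 (0.085). Gna13 differed by 0.37 (limma adjusted p = 0.0852) and passed without differentiated replicate 1 (0.51, adjusted p = 0.0197) and without undifferentiated replicate 1 (0.48, adjusted p = 0.047).

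For the counts that follow, 14.7% of all genes rose and 14.9% fell. Of 12 measured G beta and gamma genes 3 rose and 3 fell, with a median of 0.00. Gnb4 rose by 1.33 and Gng11 by 1.04, and Gng12, named after its value was seen, by 0.91. Gng3, a gamma subunit of neurons, fell by 1.57 and Gnb3 fell by 1.26, and Gng10, named after its value was seen, fell by 0.62. The adjusted p of these 6 was at most 0.00168. Of 15 effector genes 5 rose and 3 fell, with a median of 0.12. Adcy1, the calcium-stimulated adenylyl cyclase of neurons, read 5.56, 5.12 and 5.41 on the arrays labelled differentiated, against 7.31, 7.05 and 7.33 on those labelled undifferentiated, and fell by 1.87 ± 0.14 on the log2 scale (SE). Plcb4, a phospholipase C driven by Gq, fell by 1.48, and Adcy4, another adenylyl cyclase, rose by 1.05. Kcnj3, a potassium channel subunit opened by G beta-gamma and named after its value was seen, fell by 0.98 on the log2 scale. The adjusted p of these 4 effectors was at most 0.000164. The other effectors that rose, named after their values were seen, were Adcy2, Adcy3, Plcb3 and Adcy6. Their differences were 0.87, 0.74, 0.54 and 0.49 (limma adjusted p at most 0.0172). Of 9 receptor kinases, arrestins and Gpsm genes, which switch off receptors or hold Gi alpha subunits, 4 rose and 1 fell. The kinase Grk3 fell by 0.74 (limma adjusted p = 0.0135), while Grk5 rose by 0.70, Gpsm1 by 0.61, Arrb1 by 0.47 and Grk4 by 0.44, all named after their values were seen. Grk3 did not pass without differentiated replicate 1 (adjusted p = 0.0571) or 3 (0.0563), or without undifferentiated replicate 1 (0.055), and Grk4 passed only without differentiated replicate 3 among the 6 such fits.

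Of the 5 measured genes of the N-degron pathway 0 rose and 2 fell, where 14.7% of all genes rose and 14.9% fell. Ubr1 and Ubr2, also UBR ligases on this list, had no probe set of their own and were not analysed here. Ado, the dioxygenase that oxidises the cysteine, read 4.33, 4.40 and 4.22 on the arrays labelled differentiated, against 4.17, 4.14 and 4.29 on those labelled undifferentiated. Its groups overlapped and the difference was 0.11, with a 95% interval from -0.19 to 0.41 (limma adjusted p = 0.601). The ubiquitin ligase Ubr4 fell by 0.64 ± 0.09 on the log2 scale (SE, limma adjusted p = 0.000344), with 8.59, 8.40 and 8.42 on the arrays labelled differentiated, against 9.15, 9.13 and 9.05 on those labelled undifferentiated. Ate1 fell by 0.45 (limma adjusted p = 0.0146), a call lost without differentiated replicate 3 (adjusted p = 0.061) and without undifferentiated replicate 3 (0.064). Metap1 and Metap2, which remove the first methionine, differed by 0.14 and 0.19 and did not pass. Rgs4, Rgs5 and Rgs16, whose proteins share this route in mammals, thus had transcripts that did not move one way.

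**Figure D3:**
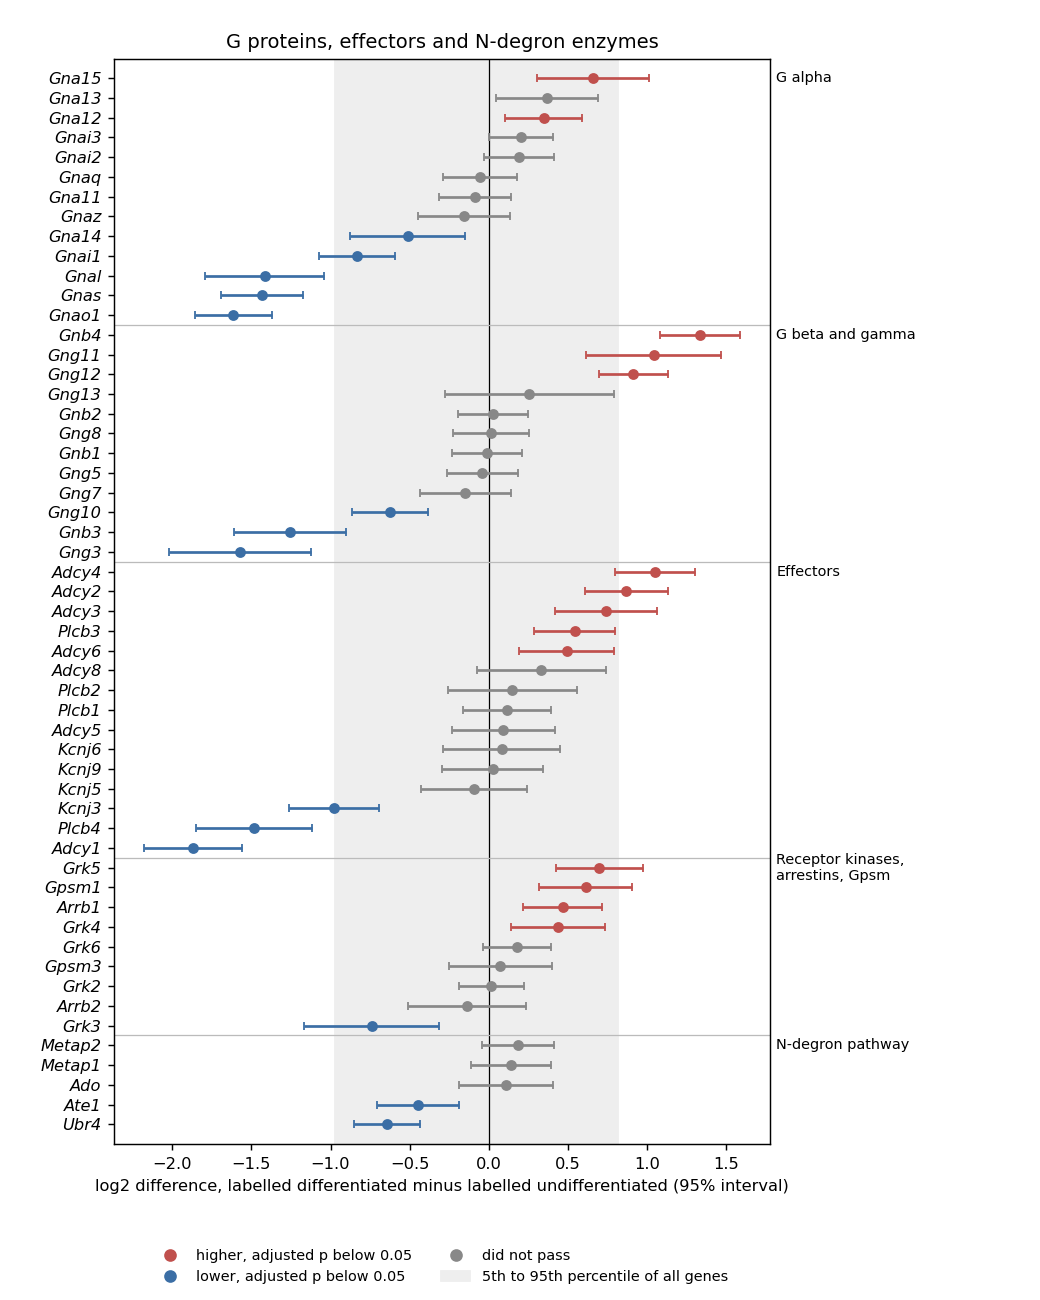
Log2 difference (horizontal axis, labelled differentiated minus labelled undifferentiated) with 95% intervals for 13 G alpha, 12 G beta and gamma, 15 effector, 9 receptor kinase, arrestin and Gpsm, and 5 N-degron pathway genes; colours and pale band mark the same classes as for the Rgs genes. Gnao1, Gnas, Gnal, Gnb3, Gng3, Adcy1, Plcb4 and Kcnj3 lie to the left of the band, and Gnb4, Gng11, Gng12, Adcy4 and Adcy2 to its right.

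Markers of several cell types moved with these genes, and in bulk RNA fewer cells of a type and less RNA per cell cannot be told apart. As a baseline, 14.7% of all genes rose and 14.9% fell. All 11 measured glomus cell markers fell, with differences between -4.65 and -1.89 and a median of -2.86, beside -2.37 for Rgs4 and -2.28 for Rgs5. The list's mean log2 value lay between 7.10 and 7.71 on the arrays labelled differentiated and between 10.38 and 10.47 on those labelled undifferentiated. Gch1, the first enzyme of tetrahydrobiopterin synthesis, fell by 3.23, and Cox4i2, a cytochrome oxidase subunit of oxygen-sensing cells, fell by 3.50. All 8 mesenchymal markers rose, with a median of 1.20, Prrx1 by 1.77 and Pdgfra by 1.46, beside 1.30 for Rgs2 and 0.91 for Rgs16. Their list mean lay between 10.70 and 10.80 on the arrays labelled differentiated and between 9.37 and 9.68 on those labelled undifferentiated. The part of these cells in the Rgs differences was not tested.

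Rgs5 is itself a pericyte marker, and other pericyte and smooth muscle markers were mixed. Of 12 measured, 5 rose (14.7% of all genes did), 2 fell (14.9% of all genes did) and 5 did not pass, with a median of 0.40. The list mean lay between 7.30 and 7.63 on the arrays labelled differentiated and between 7.10 and 7.34 on those labelled undifferentiated. Tagln and Acta2, contractile genes, rose by 1.45 and 0.97. The other markers of this list that rose were Pdgfrb, Mcam and Cspg4 (limma adjusted p at most 0.0206), named after their values were seen. The 2 that fell were Abcc9 and Kcnj8, the subunits of the potassium channel of pericytes, at -1.46 (limma adjusted p = 0.0149) and -0.88 (limma adjusted p = 0.0175), both named after their values were seen. Neither passed without undifferentiated replicate 3 (adjusted p = 0.0774 for Kcnj8 and 0.0562 for Abcc9), nor Abcc9 without undifferentiated replicate 1 (0.0547). Both sizes lean on differentiated replicate 2, without which the differences were -0.91 for Abcc9 and -0.56 for Kcnj8. Abcc9 also lost its call with the probe set of largest variance (-1.30, adjusted p = 0.0503) and with robust eBayes (adjusted p = 0.0508). The part of pericytes in the fall of Rgs5 was not tested.

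Endothelial, leukocyte and glial markers were also measured, where 29.5% of all genes passed in either direction. Of 9 endothelial markers 0 rose and 1 fell. Cldn5, of tight junctions, fell by 2.31, and Tie1 differed by -0.35 (limma adjusted p = 0.117) and passed without undifferentiated replicate 3 (-0.49, adjusted p = 0.0334). Of 11 leukocyte markers 1 rose and 1 fell: Tyrobp rose by 1.24 and Cd74 fell by 2.64. Without differentiated replicate 2, 5 of the 11 passed. The leukocyte list mean lay between 6.56 and 7.37 on the arrays labelled differentiated and between 6.74 and 7.19 on those labelled undifferentiated, beside the difference of -0.43 for Rgs1, and its part in that difference was not tested. Of 6 glial markers 2 rose, S100b by 0.74 and Foxd3 by 0.35, and 0 fell. Both glial calls were lost without differentiated replicate 3 (adjusted p = 0.0819 and 0.115) and without undifferentiated replicate 2 (adjusted p = 0.147 and 0.0966), and each without further arrays. Without differentiated replicate 1 the difference of S100b was 0.45 (adjusted p = 0.116). The endothelial list mean was 4.52 to 4.67 on the arrays labelled differentiated and 4.75 to 4.87 on those labelled undifferentiated, and the glial one was 6.80 to 7.47 on the arrays labelled differentiated and 6.72 to 7.09 on those labelled undifferentiated. None of the markers of these 6 lists lay below the lower quartile on all 6 arrays.

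**Figure D4:**
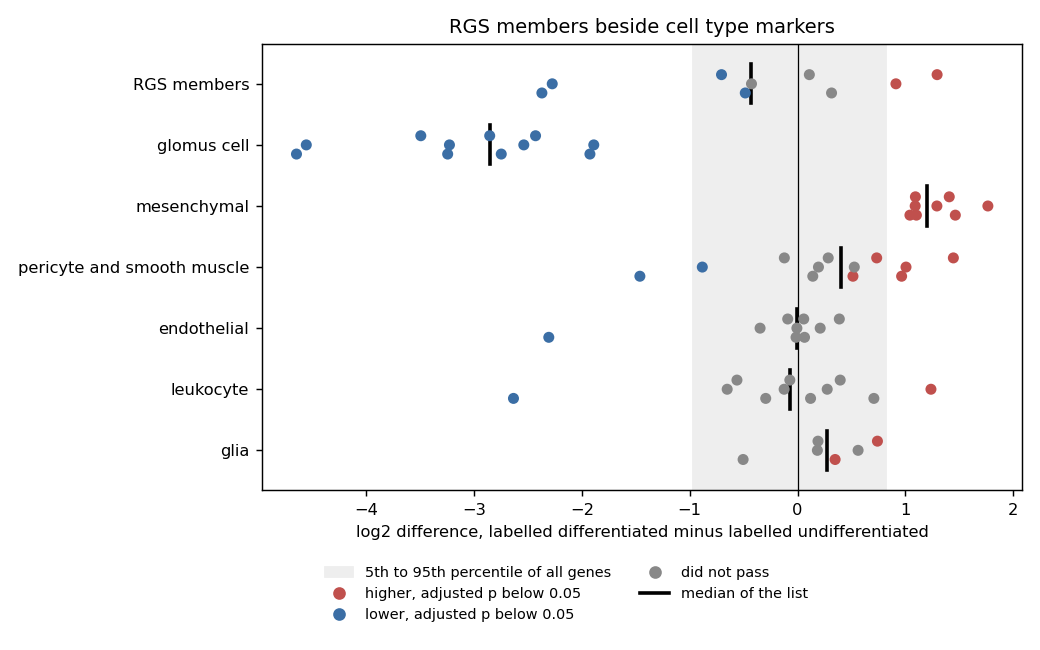
Log2 difference (horizontal axis, labelled differentiated minus labelled undifferentiated) of the 9 Rgs genes and of the measured markers of 6 cell types, 1 point a gene, coloured by limma call, with the median of each list as a black bar and the 5th to 95th percentile of all genes as a pale band. All 11 glomus cell markers lie at -1.89 or below, and all 8 mesenchymal markers passed upward. Rgs4 and Rgs5 also lie below -1.89, as do the endothelial marker Cldn5 (-2.31) and the leukocyte marker Cd74 (-2.64).

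The genes whose pattern over the 6 arrays was most like that of the members at either end were sought among 1667 genes with an SD of at least 0.5. For Rgs4 these were Apoc1, a small apolipoprotein (Pearson r = 0.9993), the synaptic vesicle protein Syp (0.9992) and the mitochondrial protein Chchd10 (0.999), with differences of -3.01, -2.64 and -1.27. For Rgs2 they were the scavenger receptor Scara3 (0.9963), the sorting nexin Snx33 (0.9959) and Lmo7 (0.9931), with differences of 1.05, 1.03 and 2.15. The arrays fall into the 2 labelled groups, so these coefficients mostly follow the difference between the groups. They describe 6 arrays and carry no test.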

How the data were processed

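RNA from 6 neurosphere samples was hybridised to Affymetrix arrays after labelling with biotin (100 ng of total RNA per the labels). The authors deposited 1 value per probe set and array on a log2 scale; the base was inferred here from the range, and the sources used here do not give the background correction, normalization or software. Values were used as deposited, and the number of arrays limits the precision. Of 29214 probe sets, 15310 were listed with 1 gene symbol, 323 with several and 13581 were not listed; 99.8% of the first kind matched a gene ID of the GRCr8 table, which changed 0 symbols. Where several probe sets served 1 gene, the brightest on average was kept (14506 genes).

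All 6 arrays entered 1 fit in limma 3.58.1 (R 4.3.3) with a mean-variance trend, two-sided, with Benjamini-Hochberg adjustment across the 14506 genes (threshold 0.05; median residual SD 0.16). The fit was tested on simulated data. Figures were drawn with matplotlib 3.10.9. The replicate numbers are shared by the groups, but the labels do not say that same-numbered arrays are pairs, so they were not taken as pairs. Deviations from the group means correlated at 0.115, 0.124 and -0.004 for same-numbered arrays. For different-numbered arrays they correlated between -0.15 and 0.062, and these few values cannot settle whether arrays are paired. Named were all Rgs, R7 partner, G alpha and N-degron genes, called genes with a difference of at least 1 from the other G protein lists (at most the 5 with the smallest p in each), the 2 markers with the smallest p per cell type, Th and Tubb3, and the 3 genes most like the members with the largest rise and fall. The Rgs genes and the 15 other lists were chosen with earlier results of these data known. The alternatives were a replicate block, quantile normalization, median centring, leaving out dim genes, other probe set choices, leaving out each array, all probe sets, array weights, an unmoderated test, and eBayes made robust or run with no trend. A list gene with no probe set of its own was not analysed here.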

Additional observations from a re-analysis of the deposited data

How the results depend on the processing

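Rgs2, Rgs4 and Rgs5 kept their direction and their call under all 17 alternatives. Rgs7 did so under each that gave it a value: leaving out dim genes removed Rgs1, Rgs7 and Rgs8, so that 3 Rgs genes were lower there instead of 4. Rgs16 kept its direction under all 17 and its call under all but the unmoderated test. No paired design was taken from the replicate numbers. With the replicate block 4430 genes were called over all genes, against 4286, with 2 Rgs genes higher and 4 lower as before, and 5 leukocyte markers instead of 2. The unmoderated test, which has few degrees of freedom, called 2740 genes, 1193 of them higher, and 1 Rgs gene higher. Under that test the calls were 1 for R7 partners, 0 for the Gq family, 5 for effectors, 1 for receptor kinases, arrestins and Gpsm genes, 1 for the N-degron pathway, 3 for pericyte, 1 for leukocyte and 0 for glial markers. Rgs16 (0.91, adjusted p = 0.115) and Rgs17 (-0.48, adjusted p = 0.199) did not pass it, and Rgs17 also missed without the trend (-0.48, adjusted p = 0.0595) and over all probe sets (-0.48, adjusted p = 0.0722). Rgs1 passed with quantile normalization (-0.45, adjusted p = 0.0458), without the trend (-0.43, adjusted p = 0.046) and with array weights (-0.45, adjusted p = 0.0367). Quantile normalization called 4 Gi, Go and Gz genes. Leaving out dim genes left 1 R7 partner and 0 Gq family genes called, and median centring and array weights each left 1 Gq family gene. Without the trend and with robust eBayes 1 glial marker was called. The cause of these changes was not tested. Leaving out each array in turn gave 3545 to 4030 called genes, 2 to 3 Rgs genes higher and 3 to 5 lower. The same fits called 1 to 2 R7 partners, 1 to 2 Gq family genes, 3 to 4 receptor kinases, arrestins and Gpsm genes, 1 to 2 N-degron genes, 1 to 2 endothelial, 2 to 5 leukocyte and 0 to 2 glial markers. They ran from -0.52 to -0.30 for Rgs1, from 0.19 to 0.45 for Rgs3 and from -0.63 to -0.31 for Rgs17. Among the named genes followed through the alternatives, signs turned in 5, Tubb3, Rgs6, Rgs18, Rgs20 and Gnaq, all with differences within 0.1 of 0. Adcy2, Adcy3, Adcy6, Plcb3, Pdgfrb, Mcam, Cspg4 and the genes most like Rgs4 and Rgs2 were not followed in this way. Tubb3 was 0.0574 with quantile normalization and 0.0283 with median centring, Rgs6 was 0.0159 with median centring and Rgs18 was -0.0667 with array weights. With single arrays left out Tubb3 ran from -0.071 to 0.12, Rgs6 from -0.0807 to 0.0423, Rgs18 from -0.14 to 0.38, Rgs20 from -0.43 to 0.34 and Gnaq from -0.16 to 0.0117. The values of dim probe sets such as Rgs1, Rgs7 and Rgs8 are limited by an unknown background.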
